A study of Homo sapiens and Mus musculus with 22 samples.

Results

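The genes described here encode 9 cell surface proteins that join neighbouring cells: the cadherins CDH1 (E-cadherin), CDH2 (N-cadherin), CDH3 (P-cadherin) and CDH11 (OB-cadherin), the epithelial adhesion molecule EPCAM, the claudins CLDN3, CLDN4 and CLDN7, and occludin (OCLN). They were chosen by symbol, with earlier results of these data known. All 9 were found in each of 3 deposited count tables, which list 25435 genes for H69 and its derivative H69M, 20113 for H69EZ and 24047 for mouse lines, and all 9 had enough counts to be tested in each. The samples are 22 RNA libraries of small cell lung cancer (SCLC) cells in 8 groups that pair cells with little MHC class I, which displays peptides to cytotoxic T cells, with related cells that have more of it.

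The human SCLC line NCI-H69, called H69 here, carries the label low/neg for MHC class I (n = 3). H69M is a line derived from H69 and labelled high (n = 3). H69M was also sequenced as sorted fractions, a PD-L1 low fraction labelled MHC class I low and a PD-L1 high fraction labelled high (n = 3 each). H69EZ was grown out of H69 by exposing it for 6 days to an EZH2 inhibitor, returning it to drug-free medium and keeping the cells that attached to plastic. Its 2 fractions were sorted as low and high for HLA-ABC (n = 2 each). RPP is a mouse SCLC line labelled low and RPP-A, labelled high, is its derivative kept for adherent growth (n = 3 each). Each derivative is a single line, and unsorted H69EZ cells were not analysed here. The labels do not say that replicates were separate cultures, so the spread that the p-values measure may be technical.

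Classical cadherins bind the same cadherin on the next cell through calcium-dependent outer domains and hold the actin cytoskeleton through catenins inside the cell. Claudins and occludin form the tight junction strands that seal epithelial sheets, and EPCAM is a membrane glycoprotein of epithelial cells that associates with CLDN7. In epithelial-mesenchymal transition, repressors such as ZEB1, ZEB2, SNAI1 and SNAI2 silence CDH1 and other epithelial genes through E-box sequences, while CDH2 and CDH11 are typical of mesenchymal cells. SCLC lines with neuroendocrine features usually grow as floating clusters and make EPCAM.

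Libraries held 10817795 to 52458228 counts. Levels are given as CPM, the usual count scaled to library size, with TMM, a normalisation that balances fold changes over all genes, and "rose" or "fell" means a Benjamini-Hochberg adjusted p under 0.05 over all genes of the table in the edgeR quasi-likelihood test. The 6 marker genes of neuroendocrine SCLC summed to 2777 to 2954 CPM in H69, 2714 to 2798 in H69M, 3904 to 4128 in PD-L1 low and 1066 to 1121 in PD-L1 high, where NEUROD1 had no count. They summed to 1894 to 1909 CPM in HLA low, 549.6 to 570.4 in HLA high, 2327 to 2870 in RPP and, in RPP-A, 150.9 to 191. The 7 fibroblast genes, collagens among them, summed to 147 to 151 CPM in H69, 2499 to 2789 in H69M, 243 to 340.0 in PD-L1 low, 11142 to 11439 in PD-L1 high, 94.4 to 97.2 in HLA low, 16325 to 17759 in HLA high, 86.2 to 459 in RPP and, in RPP-A, 23067 to 30846. Markers of normal lung epithelium summed to no more than 8.17 CPM in any library, and those of leukocytes to no more than 3.32 CPM in a human library. In the mouse lines the leukocyte markers summed to 0.0693 to 0.734 CPM in RPP and 30.3 to 34.1 in RPP-A. Cd14 made up most of the RPP-A sum, at 32.2 ± 1.9 CPM (SD, n = 3) against 0.307 ± 0.25 in RPP, while Ptprc and Cd3e were at 0 in RPP-A. The endothelial markers summed to 46.8 to 53.2 CPM in H69, 21.4 to 23.1 in H69M, 11.8 to 12.5 in PD-L1 low and 16.1 to 18.7 in PD-L1 high. They summed to 1.86 to 1.88 CPM in HLA low and 228 to 238 in HLA high, where TEK alone had 231 ± 7.6 CPM (SD, n = 2), and to 40.1 to 48.8 in RPP and, in RPP-A, 3.69 to 5.39, with Cldn5 at 0 in both mouse groups. In both sorts and in the mouse lines the fibroblast sum was higher, and the neuroendocrine sum lower, in the MHC class I high group. From H69 to PD-L1 low both sums were higher. The part of the fibroblast, leukocyte and endothelial genes in the results below was not tested. In these bulk samples, fewer cells that make a gene and less of its RNA per cell cannot be told apart.

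E-cadherin did not follow MHC class I across the H69 table. CDH1 stood at 26.9, 28.4 and 31.2 CPM in the 3 H69 libraries, 51.2, 52.2 and 52.3 in H69M, 73.5, 70.7 and 70.7 in the PD-L1 low fraction and 15.1, 11.5 and 11.96 in the PD-L1 high fraction. The ranges of the 4 groups did not overlap, with PD-L1 low highest and PD-L1 high lowest, so both MHC class I low groups lay above the PD-L1 high fraction, while H69M lay above its MHC class I low parent. The log2 change was 0.86 ± 0.07 (SE) for H69M against H69 (adjusted p = 2.356e-09), 1.33 ± 0.07 for PD-L1 low against H69 (2.670e-12) and -2.47 ± 0.08 for PD-L1 high against PD-L1 low (2.897e-16). Against H69, the PD-L1 high fraction fell by 1.14 ± 0.09 (2.038e-10). These 4 comparisons share groups and are not independent of each other.

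The other 3 cadherins had their highest level in the PD-L1 high fraction and their lowest in H69. N-cadherin changed at each step. CDH2 stood at 80.6, 84.6 and 95.2 CPM in H69, 818, 801 and 791 in H69M, 530, 548 and 525 in PD-L1 low and 1470.5, 1421 and 1418 in PD-L1 high. Every group was apart from the others, in the order PD-L1 high, H69M, PD-L1 low and H69. H69M was 9.29-fold above H69 (log2 change 3.22 ± 0.06), the PD-L1 low fraction 6.19-fold above H69 (2.63 ± 0.06) and the PD-L1 high fraction a further 2.69-fold above PD-L1 low (1.43 ± 0.05). The PD-L1 low fraction, labelled MHC class I low like H69, thus held more CDH2 than H69 did.

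P-cadherin, a classical cadherin of basal epithelia, stood at 2.74, 1.74 and 2.02 CPM in H69, 27.8, 26.7 and 28.0 in H69M, 7.45, 5.86 and 7.67 in PD-L1 low and 93.6, 97.9 and 95.5 in PD-L1 high. CDH3 was 13.8-fold higher in PD-L1 high than in PD-L1 low (log2 change 3.79 ± 0.09) and 12.6-fold higher in H69M than in H69 (3.65 ± 0.12), with no overlap between any groups. OB-cadherin, a cadherin of osteoblasts and mesenchyme, was near absent from H69. CDH11 had 5 counts in the 3 H69 libraries together, at 0.121, 0.0755 and 0 CPM, and stood at 17.4, 16.7 and 17.1 CPM in H69M, 0.842, 1.53 and 1.37 in PD-L1 low and 94.1, 93.4 and 94.0 in PD-L1 high. Taken from the summed counts, H69M was 218-fold above H69 (95% exact counting interval 93.0 to 672) and PD-L1 high 1196-fold above it (512 to 3684). PD-L1 high exceeded PD-L1 low 76.0-fold (log2 change 6.25 ± 0.11).

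**Figure D1:**
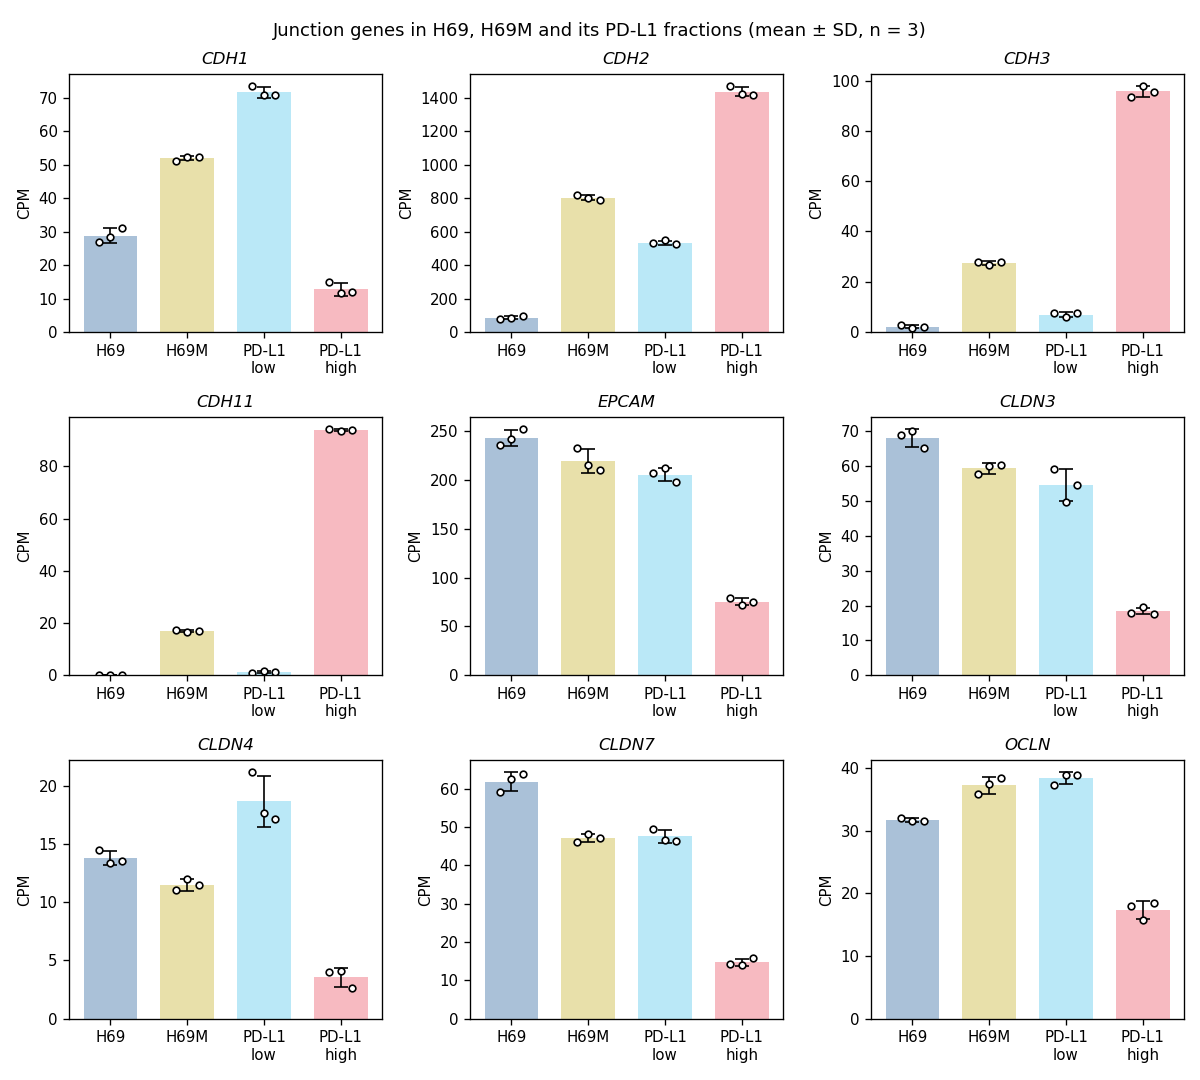
TMM-scaled CPM (vertical axes, linear, from 0) of the 9 genes in the 4 groups of the H69 table. Bars are means, error bars SDs and open circles the 3 libraries of a group. CDH1 is highest in PD-L1 low, CDH2, CDH3 and CDH11 are highest in PD-L1 high, and EPCAM, the claudins and OCLN are lowest in PD-L1 high.

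EPCAM, the claudins and occludin differed little between H69 and H69M and fell in the PD-L1 high fraction. EPCAM stood at 236, 242 and 252 CPM in H69, 233, 215 and 210 in H69M, 207, 212 and 198 in PD-L1 low and 78.9, 72.0 and 75.4 in PD-L1 high. The first 3 groups lay close together, and the ranges of H69M and PD-L1 low overlapped, while all PD-L1 high libraries were far below. PD-L1 high was 2.72-fold below PD-L1 low (log2 change -1.45 ± 0.06, adjusted p = 3.334e-15). H69M differed from H69 by -0.15 ± 0.05 (adjusted p = 0.0160), a call that was lost with no filter, with library totals, with only the 2 groups fitted, and without H69 replicate 3, H69M replicate 2 or H69M replicate 3 (adjusted p 0.0503 to 0.0904).

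CLDN7, the claudin known to bind EPCAM, stood at 59.1, 62.5 and 63.8 CPM in H69, 45.9, 48.0 and 47.2 in H69M, 49.5, 46.7 and 46.4 in PD-L1 low and 14.2, 14.05 and 15.7 in PD-L1 high. It fell 1.31-fold from H69 to H69M and was 3.26-fold lower in PD-L1 high than in PD-L1 low (log2 change -1.70 ± 0.07), with H69M and PD-L1 low overlapping. CLDN3, a sealing claudin, stood at 68.8, 70.1 and 65.1 CPM in H69, 57.6, 59.9 and 60.4 in H69M, 59.1, 49.8 and 54.7 in PD-L1 low and 18.0, 19.5 and 17.7 in PD-L1 high. Its order of levels was that of EPCAM, with H69 first, H69M and PD-L1 low overlapping, and PD-L1 high 2.96-fold below PD-L1 low (-1.56 ± 0.07). In RefSeq, CLDN7 overlaps ELP5 and EPCAM overlaps MIR559, and the rule for counting overlapping genes is not known here, which leaves both counts uncertain to that extent.

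CLDN4 was the 1 claudin of the 3 that rose from H69 to the PD-L1 low fraction. Its levels were 14.5, 13.4 and 13.6 CPM in H69, 11.01, 11.99 and 11.4 in H69M, 21.1, 17.7 and 17.1 in PD-L1 low and 3.96, 4.06 and 2.603 in PD-L1 high. All 4 groups were apart, in the order PD-L1 low, H69, H69M and PD-L1 high. The changes were 0.44 ± 0.10 for PD-L1 low against H69 (adjusted p = 0.000550) and -2.37 ± 0.13 for the PD-L1 sort. That between H69M and H69 (-0.27 ± 0.10, adjusted p = 0.0259) was lost with library totals, with the DESeq2 test and without H69 replicate 1, H69M replicate 1 or H69M replicate 3 (adjusted p 0.0554 to 0.0963). OCLN stood at 32.0, 31.6 and 31.6 CPM in H69, 35.8, 37.4 and 38.5 in H69M, 37.4, 38.9 and 39.0 in PD-L1 low and 18.0, 15.7 and 18.4 in PD-L1 high. It was 2.21-fold lower in PD-L1 high than in PD-L1 low (-1.15 ± 0.07), the smallest fitted change of the 9 in the sort, and H69M and PD-L1 low again overlapped. RefSeq also lists a transcribed pseudogene, OCLNP1, with which OCLN could share reads.

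The change along the PD-L1 sort was set against the change from H69 to H69M in the same fit. The difference was called for 71.4% of all tested genes. For CDH1 the sort gave a log2 change lower by 3.33 ± 0.11 (adjusted p = 1.203e-15), the 2 contrasts having opposite signs, and for OCLN lower by 1.38 ± 0.09 (7.314e-11), again with opposite signs. CDH2 and CDH11 rose less along the sort than from H69 to H69M, by 1.79 ± 0.08 and 1.41 ± 0.50 (adjusted p = 4.817e-14 and 0.0175). EPCAM, CLDN3, CLDN7 and CLDN4 fell more along the sort, by 1.30 ± 0.08, 1.36 ± 0.10, 1.31 ± 0.09 and 2.10 ± 0.17. For CDH3 the changes differed by 0.13 ± 0.18 and the test gave no call (adjusted p = 0.514).

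Promoters of the junction genes were read for the E-box CACCTG, letters that ZEB and SNAI proteins are known to bind and that read CAGGTG on the other strand. RefSeq promoters (GRCh38.p14, 250 bases before to 50 after each start) were given for 5 of the 9 genes, and the letters were searched on both strands without overlap. Of 35116 promoters, 20.6% held at least 1 match and 0.635% held 3 or more. Of the 2 starts listed for CLDN7, the one at chr17:7262429-7262728 held 5 matches and the other none. OCLN held 1 at its first start (chr5:69492297-69492596) and 2 at its second, CLDN3 held 1, and CLDN4 and both CDH2 starts held none. Shown are the CLDN7 promoter with most matches, the first OCLN promoter and that of CLDN4, a gene that fell in the PD-L1 high fraction and holds none in its window. Each runs 5′ to 3′ on the gene's strand from 250 bases before the start to 30 after it, with E-box matches in capitals. A match describes letters and shows no binding.
CLDN7, chr17:7262449-7262728, minus strand: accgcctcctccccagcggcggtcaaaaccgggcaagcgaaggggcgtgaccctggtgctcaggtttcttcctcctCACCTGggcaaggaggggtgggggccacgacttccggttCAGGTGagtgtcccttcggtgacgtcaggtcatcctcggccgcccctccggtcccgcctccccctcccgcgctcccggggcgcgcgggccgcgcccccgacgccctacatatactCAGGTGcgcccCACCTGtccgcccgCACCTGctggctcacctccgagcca
OCLN, chr5:69492297-69492576, plus strand: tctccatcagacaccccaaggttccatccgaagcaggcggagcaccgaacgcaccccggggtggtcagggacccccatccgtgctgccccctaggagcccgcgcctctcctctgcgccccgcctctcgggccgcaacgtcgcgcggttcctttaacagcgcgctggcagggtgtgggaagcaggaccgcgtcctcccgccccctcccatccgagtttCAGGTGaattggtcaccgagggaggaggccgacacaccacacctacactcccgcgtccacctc
CLDN4, chr7:73830746-73831025, plus strand: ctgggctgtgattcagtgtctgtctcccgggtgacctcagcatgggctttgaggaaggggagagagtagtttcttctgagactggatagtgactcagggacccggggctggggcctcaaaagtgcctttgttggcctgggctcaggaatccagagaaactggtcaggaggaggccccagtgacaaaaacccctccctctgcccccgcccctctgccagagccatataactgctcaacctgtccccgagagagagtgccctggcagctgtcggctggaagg
The first bases of the CLDN7 matches lie at -174, -135, -20, -9 and 6 from the start, so 3 of the 5 sit within 20 bases of it. Along the PD-L1 sort CLDN7, OCLN, CLDN3 and CLDN4 fell and CDH2 rose, so of the genes with no match CLDN4 fell and CDH2 rose.

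In H69EZ, sorted on HLA class I, 6 of the genes were lower and 3 higher in the HLA high fraction. E-cadherin stood at 26.7 and 25.2 CPM in the HLA low libraries and at 12.4 and 13.1 in the HLA high libraries, a 2.04-fold fall (log2 change -1.03 ± 0.09). EPCAM fell from 183 and 175 CPM to 81.98 and 89.9, 2.08-fold. The claudins split into 2 large falls and 1 smaller fall: CLDN3 went from 14.3 and 13.9 CPM to 1.84 and 1.36 (8.64-fold, -3.11 ± 0.13), CLDN7 from 65.995 and 65.2 to 11.1 and 8.57 (6.62-fold, -2.73 ± 0.08) and CLDN4 from 9.23 and 9.61 to 4.37 and 4.67 (2.09-fold, -1.06 ± 0.11). Occludin changed least, from 48.2 and 46.2 CPM to 38.2 and 41.6 (-0.24 ± 0.07, adjusted p = 0.00120), and its call was lost without HLA low replicate 1 (adjusted p = 0.110).

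The 3 other cadherins rose in HLA high. CDH2 stood at 358 and 339 CPM in HLA low and 1147 and 1281 in HLA high, 3.48-fold (1.80 ± 0.06). CDH3 went from 22.8 and 21.6 CPM to 330.3 and 323, 14.7-fold (3.88 ± 0.07). CDH11 had 1 count in the HLA low fraction, in replicate 1, and 8015 counts in HLA high, at 87.0 and 95.7 CPM, which gives a ratio of 8504 with a 95% exact counting interval of 1526 to 335923. Its fitted log2 change of 12.73 became 14.96 without HLA low replicate 1 and 11.99 without replicate 2, so its size is not well set by these counts. With 2 residual degrees of freedom in this table the spread was pooled across genes, and the SEs rest on that pooling.

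In the mouse lines the genes typical of epithelia fell to near absence. Cdh1 stood at 512, 534 and 504 CPM in the 3 RPP libraries and 3.73, 2.87 and 1.31 in the RPP-A libraries, a 196-fold fall (log2 change -7.62 ± 0.33, adjusted p = 5.861e-07). Epcam went from 649, 683 and 708 CPM to 3.25, 1.95 and 1.31, 314-fold (-8.30 ± 0.31). No RPP library came near an RPP-A library for either gene. Cldn3 went from 59.0, 65.9 and 71.2 CPM to 0.407, 0.402 and 0 (-7.88 ± 0.37) and Cldn7 from 65.1, 72.7 and 72.9 to 0.474, 0.172 and 0.312 (-7.78 ± 0.21). Cldn4 had 990 counts in RPP and 5 in RPP-A, a ratio of 233 (95% exact counting interval 99.6 to 720), and Ocln 1814 against 9, a ratio of 237 (125 to 520.0).

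Of the mouse cadherins, 1 was not called, 2 fell and 1 rose. Cdh2 stood at 183, 214 and 190 CPM in RPP and 187, 188 and 173 in RPP-A, ranges that overlap (-0.10 ± 0.10, adjusted p = 0.402). With library totals in place of TMM it was called lower (-0.46, adjusted p = 0.00284), but under that scaling the median of all genes was -0.40, and Cdh2 lay 0.06 below it. Cdh3 fell, from 14.8, 10.2 and 10.8 CPM to 2.10, 2.35 and 2.69, 4.97-fold (-2.31 ± 0.22), whereas CDH3 rose in both human sorts. Whether the mouse and human changes differ was not tested, since the tables were made apart. Cdh11 rose from 10.5, 7.41 and 6.89 CPM to 519, 517 and 572, 64.9-fold (6.02 ± 0.19).

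The mouse libraries were not equally alike. The column names do not match single samples of the labels, and the columns were assigned to the groups by name only. Counts of RPPM1 and RPPM2, both RPP-A, differed by a chi-square of 1.33 per degree of freedom, against 2.22 to 37.2 for the other pairs within a group, and EHK_RPP4 and RPPM3 stood apart from the libraries of their groups (28.1 to 37.2). EHK_RPP4 had the highest Cdh3, Cdh11 and Cldn4 of RPP, and RPPM3 the lowest Cdh1, Epcam, Cldn3, Cldn4 and Ocln of RPP-A. Without both libraries the log2 changes were -7.27 for Cdh1, -8.05 for Epcam, -7.34 for Cldn3, -7.38 for Cldn4, -7.79 for Cldn7, -7.43 for Ocln, -2.18 for Cdh3 and 6.22 for Cdh11, all still called, and -0.06 for Cdh2, still not called. With RPPM1 and RPPM2 summed into 1 library, 8 genes were again called, and the change of Epcam was -8.37.

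**Figure D2:**
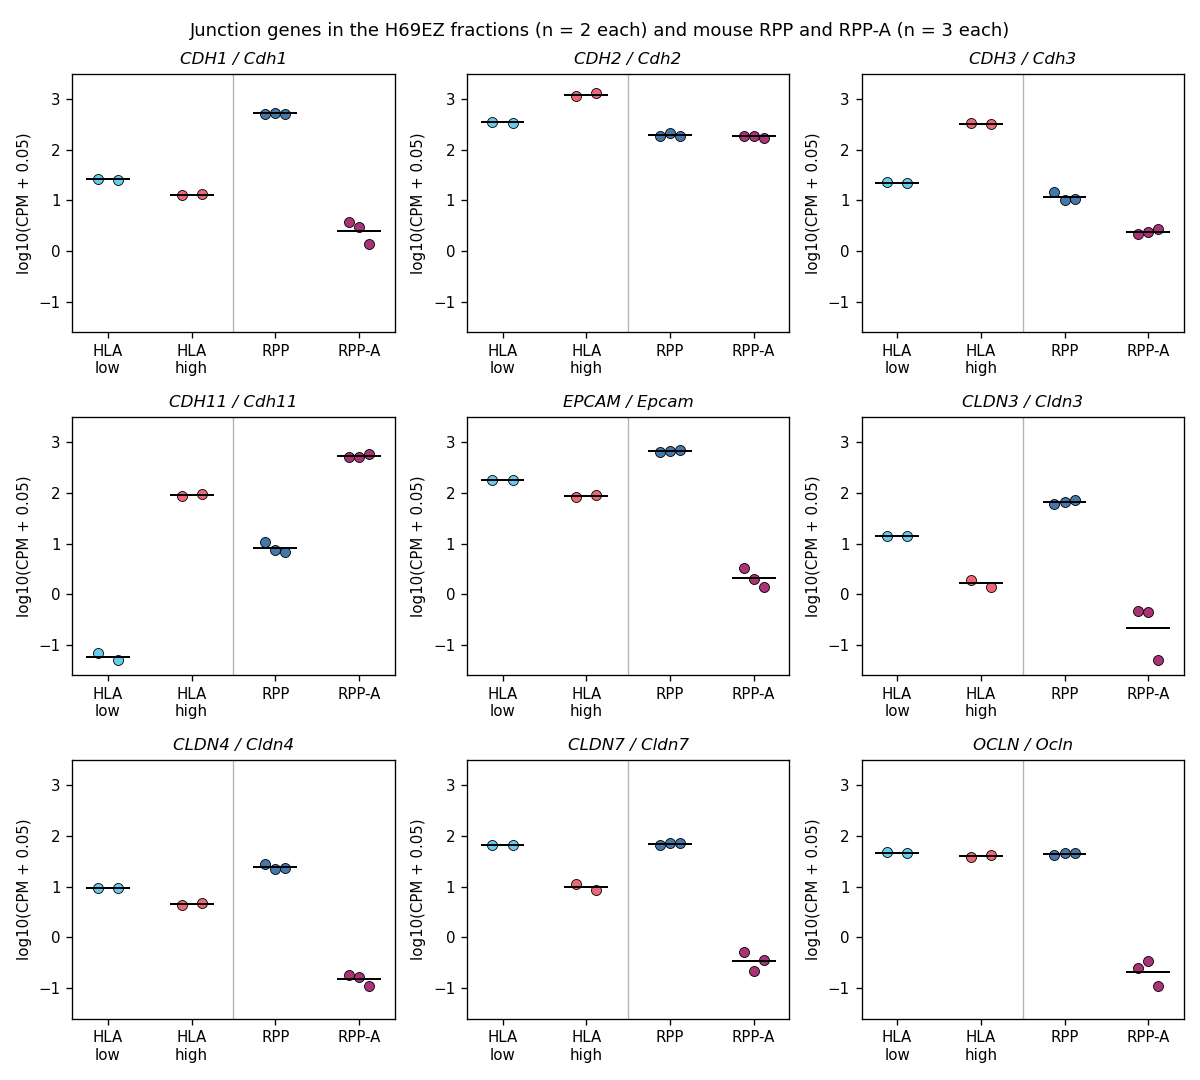
Levels as log10(CPM + 0.05) of the 9 genes in the H69EZ fractions (left of the grey line in each panel, 2 libraries each) and the mouse lines (right, 3 libraries each). Points are libraries and horizontal lines group means of the plotted values. The H69EZ and mouse tables were scaled separately. CDH11 is the gene that rises most in HLA high, and in RPP-A all genes but Cdh2 and Cdh11 are lower.

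Counted over the 9 genes, 3 rose and 6 fell in the PD-L1 sort, where 39.0% of all tested genes rose and 39.4% fell. From H69 to H69M, 5 rose and 4 fell (35.9% and 36.6% of all genes), in PD-L1 low against H69, 6 rose and 3 fell (39.0% and 36.9%), and in PD-L1 high against H69, 3 rose and 6 fell (38.1% and 39.5%). The HLA sort gave 3 higher and 6 lower (41.1% and 40.2%). RPP-A against RPP gave 1 higher, 7 lower and 1 not called (37.6% and 40.6%). Most genes passed the test in every comparison, so being called sets these genes apart from few others. The median log2 change of the 9 genes was 0.23 in H69M against H69, -1.45 in the PD-L1 sort, -1.03 for HLA high against HLA low and -7.76 in RPP-A against RPP, while the median of all genes lay between -0.04 and 0.02 in the 6 comparisons.

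**Figure D3:**
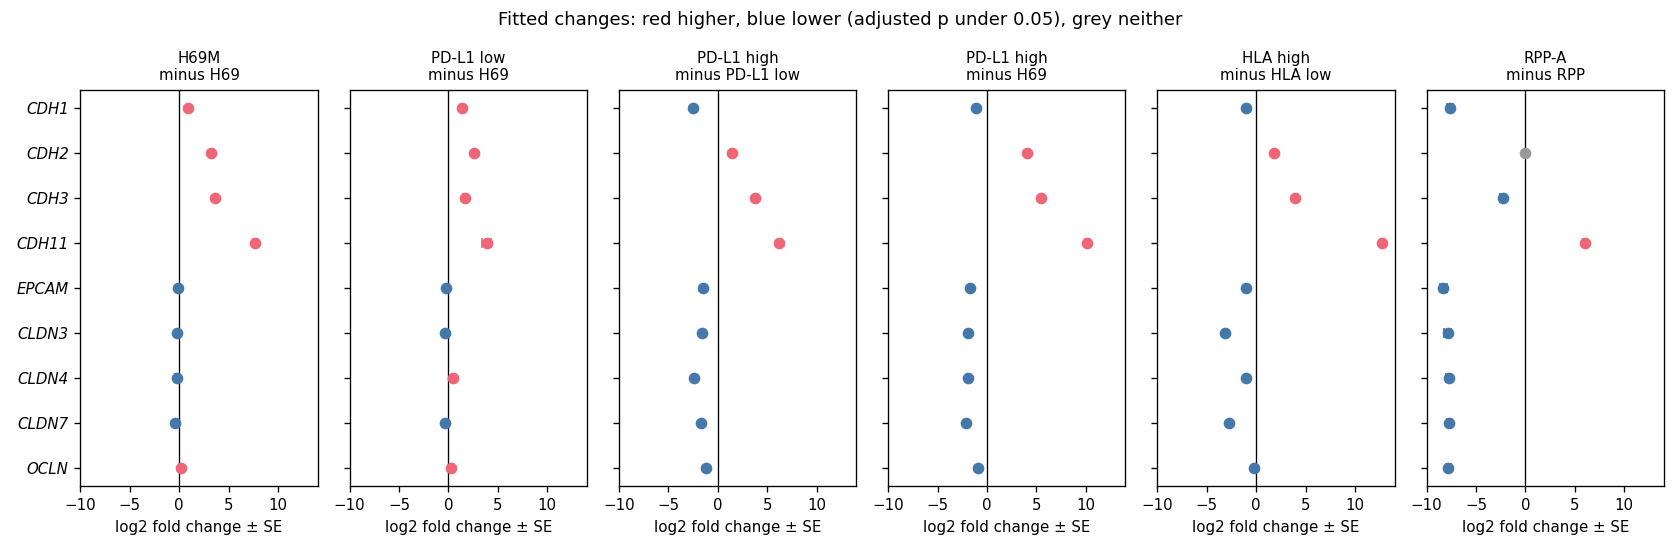
Fitted log2 fold change (horizontal axes) with its SE for the 9 genes in the 6 comparisons, red where higher, blue where lower and grey where not called. Error bars are mostly smaller than the points. In the PD-L1 and HLA sorts CDH2, CDH3 and CDH11 lie right of 0 and the other 6 left of it, and in RPP-A against RPP 6 genes lie between -7.62 and -8.30. The CDH11 points against H69 and in the HLA sort rest on 5 and 1 counts in the lower group.

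Other adhesion genes were counted in lists. Each count below is to be read beside the share of all tested genes. Of these, 39.0% rose and 39.4% fell in the PD-L1 sort, and 41.1% and 40.2% in the HLA sort. In H69M against H69 the shares were 35.9% and 36.6%, and in RPP-A against RPP 37.6% and 40.6%. Counts near these shares do not set a list apart from other genes. Of 13 tested further cadherins, 3 rose and 5 fell in the PD-L1 sort (median -0.36). CDH13, a cadherin held to the membrane by a lipid anchor, went from 0.699 ± 0.28 CPM (SD, n = 3) in PD-L1 low to 45.9 ± 1.34 in PD-L1 high, and CDH6 from 31.7 ± 0.52 to 140 ± 0.83. In the HLA sort 8 of 14 rose and 3 fell (median 1.09), with CDH6 at 69.1 ± 0.69 CPM in HLA low and 739 ± 37.7 in HLA high. In RPP-A, 10 of 12 fell and 1 rose (median -6.94), Cdh4 going from 39.5 ± 6.6 CPM to 0.224 ± 0.11. From H69 to H69M, 4 of 13 rose and 8 fell (median -1.07), among them CDH20 (34.8 ± 1.79 to 1.74 ± 0.50 CPM) and CDH23 (27.7 ± 0.71 to 1.40 ± 0.013).

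The other claudins were called in both directions in the human sorts. In the PD-L1 sort 4 of 7 rose and 3 fell (median 0.53), and in the HLA sort 5 of 10 rose and 5 fell (median 0.67). CLDN1, a barrier-forming claudin of skin and other epithelia, was at 0.41 ± 0.27 CPM in H69, 37.3 ± 0.72 in H69M, 1.03 ± 0.68 in PD-L1 low and 118 ± 5.0 in PD-L1 high, and at 0.0529 ± 0.0091 in HLA low and 107 ± 6.1 in HLA high. It was thus highest where the 3 claudins above were lowest. In RPP-A, 5 of 7 fell and 2 rose (median -5.60), Cldn6 going from 22.0 ± 3.0 CPM to 0.0834 ± 0.073 and Cldn23 from 41.9 ± 6.7 to 0.865 ± 0.26.

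Among the catenins and nectins, which hold cadherins to actin and add calcium-independent contacts, 9 of 12 rose and 2 fell in the PD-L1 sort (median 1.03). VCL, vinculin, rose from 82.4 ± 3.0 CPM to 611 ± 19.4 there and from 70.0 ± 4.1 to 676 ± 13.6 in the HLA sort, where 8 of 13 rose and 4 fell (median 0.57). CTNNB1, β-catenin, stood at 358 ± 25 CPM in H69, 508 ± 12 in H69M, 460 ± 15 in PD-L1 low and 523 ± 41 in PD-L1 high. Its rise in the PD-L1 sort (0.18 ± 0.06) was lost with library totals (0.04, adjusted p = 0.466) and without PD-L1 low replicate 1 or PD-L1 high replicate 1. In the HLA sort CTNNB1 went from 324 ± 3.5 CPM to 661 ± 8.8, while mouse Ctnnb1 fell from 1456 ± 74 CPM to 445 ± 9.0. In RPP-A 7 of 12 genes of the list fell and 4 rose (median -1.51), with Jup, which joins cadherins at desmosomes and adherens junctions, going from 311 ± 12 to 47.1 ± 0.27 CPM and Ctnnd1, p120-catenin, rising from 189 ± 27 to 572 ± 47. From H69 to H69M, 6 of 12 rose and 3 fell (median 0.36), and CTNND2, a neural catenin, went from 65.7 ± 2.3 to 2.31 ± 0.087 CPM. CTNND1 stood at 2.82 to 5.83 CPM in the 4 group means of the H69 table and at 245 and 363 CPM in those of H69EZ. RefSeq has a read-through gene, TMX2-CTNND1, over it, which is a row of 0 counts in the H69 table, so CTNND1 is uncertain there.

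Tight junction partners, the scaffolds and other membrane proteins of the seal, fell for 14 of 17 and rose for 3 in the PD-L1 sort (median -0.86). F11R, the adhesion molecule JAM-A, went from 346 ± 9.1 CPM to 96.8 ± 2.8, while TJP1, the scaffold ZO-1, rose from 120 ± 2.3 to 360 ± 14 and JAM2 from 1.93 ± 0.51 to 25.6 ± 1.0. In the HLA sort 10 of 16 fell and 6 rose (median -0.60), TJP1 going from 115 ± 1.7 to 458 ± 30.7 CPM and MARVELD3, a relative of occludin, from 7.44 ± 0.27 to 0.889 ± 0.18. In RPP-A 13 of 17 fell and 4 rose (median -2.83), with Lsr, which marks tricellular contacts, going from 146 ± 4.0 to 0.739 ± 0.50 CPM and Tjp1 from 224 ± 29 to 142 ± 5.3. From H69 to H69M 7 of 17 rose and 6 fell (median 0.13).

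Desmosome genes were called in both directions in the human cells, as all genes were. In the PD-L1 sort 2 of 8 were higher and 5 lower (median -1.07). The HLA sort had 3 of 7 higher and 4 lower (median -0.48), beside 41.1% and 40.2% of all genes. From H69 to H69M 3 of 8 went each way (median 0.36), beside 35.9% and 36.6% of all genes. DSG2, a desmosomal cadherin, went from 130 ± 1.9 CPM in PD-L1 low to 33.5 ± 1.6 in PD-L1 high and from 247 ± 4.9 in HLA low to 51.9 ± 1.2 in HLA high, while from H69 to H69M it rose from 31.4 ± 1.8 to 168 ± 6.2. In RPP-A 9 of 10 fell and none rose (median -6.83), Dsp, the plaque protein desmoplakin, going from 279 ± 88 to 0.648 ± 0.26 CPM. Among EPCAM's partners and relatives, CD44 rose from 38.0 ± 4.1 to 574 ± 0.21 CPM in the PD-L1 sort, from 32.1 ± 0.37 to 869 ± 22 in the HLA sort and from 16.3 ± 12 to 600 ± 58 in RPP-A, where the log2 change was 5.21, and 6.04 without EHK_RPP4. That list had 7 of 11 higher and 4 lower in the PD-L1 sort (median 0.50), 7 of 11 and 3 for HLA high against low (median 0.73), 7 of 11 and 4 in H69M against H69 (median 0.29) and 4 of 10 and 5 in RPP-A (median -0.29). In RPP-A Spint2, a protease inhibitor, fell from 264 ± 11 to 1.02 ± 0.41 CPM and St14, a membrane protease, from 143 ± 2.0 to 0.600 ± 0.43.

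**Figure D4:**
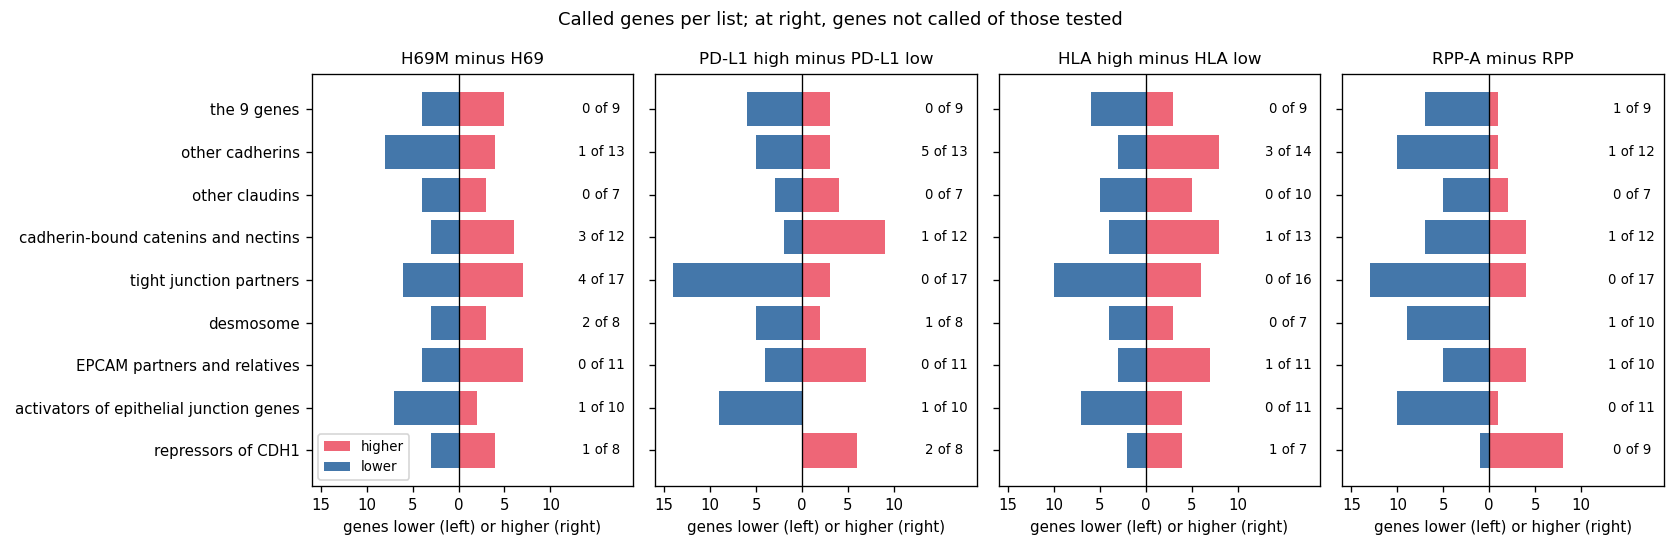
Number of genes called higher (red, right) and lower (blue, left) in each list for 4 comparisons, with the number not called of those tested at the right. Tight junction partners fall for 14 of 17 genes in the PD-L1 sort and 13 of 17 in RPP-A, and repressors of CDH1 rise for 8 of 9 in RPP-A.

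Known repressors of CDH1 rose for 6 of 8 tested genes in the PD-L1 sort and none fell (median 0.93), for 4 of 7 with 2 lower in the HLA sort (median 1.55), for 4 of 8 with 3 lower in H69M against H69 (median 0.27) and for 8 of 9 with 1 lower in RPP-A (median 3.79). ZEB1 was at 2.94, 2.64 and 2.58 CPM in H69, 25.2, 27.3 and 25.7 in H69M, 30.5, 31.1 and 34.9 in PD-L1 low and 90.5, 88.8 and 86.3 in PD-L1 high. The PD-L1 low fraction had both more ZEB1 and more CDH1 than H69, by log2 changes of 3.54 ± 0.09 and 1.33 ± 0.07. Within the sort ZEB1 rose by 1.47 ± 0.06 and CDH1 fell. In PD-L1 low against H69, 5 of the 8 repressors rose and 3 fell, beside 39.0% and 36.9% of all genes. SNAI2 was among those that fell, from 66.1 ± 8.0 CPM in H69 to 28.7 ± 1.4 in PD-L1 low and 35.4 ± 2.3 in H69M. The part of these repressors in the CDH1 levels was not tested. ZEB2 went from 0.880 ± 0.064 CPM in H69 to 17.2 ± 0.67 in H69M, 11.3 ± 0.70 in PD-L1 low and 59.6 ± 0.95 in PD-L1 high. In the HLA sort ZEB1 rose from 17.9 ± 0.10 to 159 ± 13 CPM, ZEB2 from 0.0975 ± 0.026 to 58.2 ± 3.0 and SNAI2 from 14.7 ± 0.044 to 107 ± 11, and SNAI1 fell from 14.8 ± 0.43 to 1.18 ± 0.17. In the mouse lines Zeb1 rose from 16.8 ± 6.5 to 73.6 ± 10 CPM, Zeb2 from 3.88 ± 0.68 to 202 ± 18 and Snai1 from 3.02 ± 1.9 to 103 ± 4.5.

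Of the genes listed as activators of epithelial junction genes, 9 of 10 tested fell in the PD-L1 sort and none rose (median -1.33). From H69 to H69M, 7 fell and 2 rose (median -0.72), in the HLA sort 7 of 11 fell and 4 rose (median -1.35), and in RPP-A 10 of 11 fell and 1 rose (median -6.71). ELF3, an epithelial ETS factor, went from 126 ± 5.1 to 21.7 ± 1.6 CPM in the PD-L1 sort. ESRP1, a splicing regulator of epithelial cells, stood at 279 ± 6.2 CPM in H69, 265 ± 11 in H69M, 261 ± 9.9 in PD-L1 low and 97.3 ± 1.8 in PD-L1 high, and went from 319 ± 1.5 to 43.2 ± 2.7 in the HLA sort and from 371 ± 23 to 0.989 ± 0.49 in RPP-A. GRHL2, an activator of CDH1 and CLDN4 in epithelia, was not abundant enough to be tested in the H69 table, with 0 to 7 counts a library, and Grhl2 went from 67.2 ± 2.3 to 0.261 ± 0.24 CPM in the mouse lines.

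**Figure D5:**
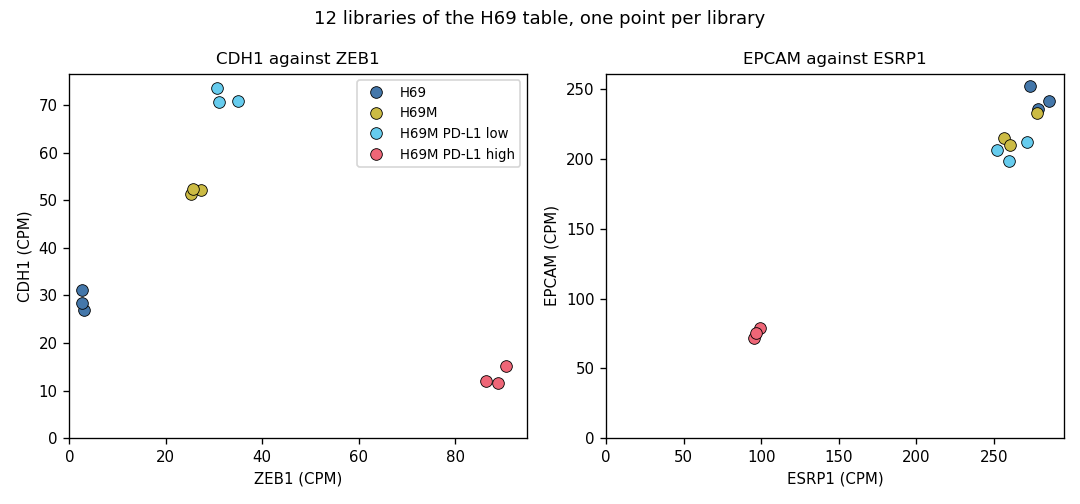
CDH1 against ZEB1 (left) and EPCAM against ESRP1 (right) in TMM-scaled CPM, 1 point per library for the 12 libraries of the H69 table, coloured by group. CDH1 is lowest and ZEB1 highest in PD-L1 high, and both are higher in PD-L1 low than in H69. The part of ZEB1 in the CDH1 levels was not tested. EPCAM and ESRP1 are both lowest in PD-L1 high.

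The genes most like CDH1, CDH2 and EPCAM over the 12 libraries of the H69 table were found by the mean absolute difference of log2 CPM after centring each gene. For EPCAM these were ESRP1 (0.0633), DDC (0.0678) and SCAMP5 (0.0706), where the median over all genes was 0.633. For CDH2 they were MLF1 (0.0750), ANO10 (0.0954) and FAM101B (0.110), with a median over genes of 1.29. For CDH1 they were RTBDN (0.144), RGMA (0.151) and RERG (0.154), with a median of 0.879. RTBDN, like CDH1, was highest in PD-L1 low, at 44.8 CPM, and lowest in PD-L1 high, at 9.85 CPM, with H69 at 17.2 and H69M at 29.5 between them. The 12 libraries fall into 4 groups, so these likenesses rest on 4 group levels.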

How the data were processed

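Libraries were made from 250 ng of RNA with an exome capture kit, per the labels' protocols. The values the authors deposited are raw read counts for each gene. STAR 2.6.1 and the builds hg19 and mm10 are named per the submitters' processing notes. For the counting program, annotation and strand, the sources used here give nothing.

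The members and lists were chosen with earlier results of these data known. All 9 genes were reported, and from each list the genes with the largest changes among those called with groups that do not overlap, at most 4 per comparison, plus 8 always named; some of these are given by counts only or not reported here. Cldn23, Jup, CDH6 and similar list genes follow that rule, and CLDN1 and CTNND1 levels in further groups were added after their values were seen.

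Each table was fitted alone in R 4.3.3 with edgeR 4.0.16 (TMM, filterByExpr with a minimum count of 10, 1 coefficient per group, two-sided quasi-likelihood test), which tested 15445, 14819 and 14032 genes. The SE is the log2 fold change over the square root of F. Exact binomial 95% intervals cover counting error only. The fit was also run on simulated counts. These used a single fixed spread for all genes and tables, unlike the data, and the outcome is not reported here. Alternatives were DESeq2 1.42.0 size factors and test, limma-voom (limma 3.58.1), no filter, a minimum count of 100, only the groups compared, a replicate block, and each library left out. Library totals without TMM were also run. Added after the data were seen were EHK_RPP4 and RPPM3 both left out and RPPM1 and RPPM2 summed.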

Additional observations from a re-analysis of the deposited data

Results flagged for a closer look

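Effects of opposite direction drew attention to 3 genes. The log2 change of CDH1 was 0.86 in H69M against H69 but -2.47 along the PD-L1 sort, -1.03 along the HLA sort and, for Cdh1, -7.62 in RPP-A against RPP. The difference between the H69M change and the PD-L1 sort was tested (-3.33 ± 0.11, adjusted p = 1.203e-15 by edgeR), and differences between tables were not tested. OCLN behaved in a like manner, at 0.23 in H69M against H69, -1.15 along the PD-L1 sort, -0.24 along the HLA sort and, for Ocln, -7.82 in RPP-A. CDH3 rose by 3.65 in H69M against H69, by 3.79 in the PD-L1 sort and by 3.88 in the HLA sort, while mouse Cdh3 changed by -2.31, a difference that was not tested.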

How the results depend on the processing

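No change of direction was seen for any of the 9 genes or the other named genes that were called, under the alternatives run. Of 729 values of the 9 genes under an alternative, 716 kept their side of the threshold, 12 lost the call and 1, Cdh2 with library totals, gained it. The lost calls were those of EPCAM and CLDN4 in H69M against H69 and of OCLN in the HLA sort, given above. Leaving out 1 library at a time left 7 to 9 of the genes called in H69M against H69, 8 to 9 in the HLA sort, 8 in RPP-A against RPP and 9 in the other comparisons. Of 2832 values of other named genes, 2819 kept their side, 11 lost the call and 2 gained it. The CPM levels depend on the scaling more than the calls do. Of 144 group means of the 9 genes under library totals or DESeq2 size factors, 31 moved by their SD or more. limma-voom moved Cldn3 in RPP-A from -7.88 to -8.49. Of the list genes given by their levels, 1 library moved the log2 change by over 1.5-fold, with the call kept, for CLDN1 in H69M against H69 (6.39, and 7.15 without H69 replicate 1) and in PD-L1 high against H69 (8.05, and 8.81 without it), OVOL1 and GRHL3 in the HLA sort (-4.44, and -5.39 without HLA high replicate 1; 5.88, and 6.50 without HLA low replicate 2), Snai1 (5.12, and 5.78 without EHK_RPP4), Grhl2 (-8.02, and -9.03 without RPPM1) and St14 (-7.83, and -8.60 without RPPM2). Without both EHK_RPP4 and RPPM3, Cldn6 moved from -7.91 to -7.22 and Dsp from -8.74 to -8.15.

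Library totals without TMM shifted the median log2 change of all genes by -0.14 for the PD-L1 sort, by -0.15 for the HLA sort and by -0.37 in RPP-A against RPP, where 3964 genes then rose and 7290 fell in place of 5274 and 5701. Deviations from the group mean had correlations of -0.26 to 0.18 for same-numbered libraries and -0.14 to 0.23 for differently numbered ones. With 2 or 3 libraries a group, these values cannot decide whether the replicate numbers pair the samples. With the replicate block, 10915 genes were called in H69M against H69 in place of 11196, 11923 in the PD-L1 sort in place of 12100 and 12031 in the HLA sort in place of 12055, and 9 of the 9 genes each time. No paired analysis was possible for the mouse lines because the numbers in their column names do not match the replicate numbers of the labels. Depth limits CDH11 in H69 and HLA low and the claudins and Ocln in RPP-A, which had 0 to 7 counts a library for Cldn3, Cldn4, Cldn7 and Ocln.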

Other observations

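The unsorted H69M libraries did not sit at 1 place between the 2 fractions sorted from that line. On the CPM scale, with the PD-L1 low mean as 0% and the PD-L1 high mean as 100%, the mean of H69M lay at 17.1% for CDH11 (16.7% to 17.4% over the 3 H69M libraries), 23.1% for CDH3 (22.2% to 23.6%), 29.8% for CDH2 (28.4% to 31.4%), 33.5% for CDH1 (32.8% to 34.8%) and 47.5% for CLDN4 (44.1% to 50.6%). For OCLN it lay at 5.63% (-0.27% to 12.4%) and for CLDN7 at 1.46% (-1.51% to 4.82%). For EPCAM and CLDN3 it lay beyond the PD-L1 low mean, at -10.5% (-21.1% to -3.34%) and -13.2% (-16.3% to -8.54%). These ranges do not include the spread of the fractions, and no test was made of them.

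In the HLA sort 4 of the 11 genes listed as activators rose and 7 fell, beside 41.1% and 40.2% of all genes. CDH1, EPCAM and the 3 claudins fell. EHF went from 0.0314 ± 0.012 CPM (SD, n = 2) in HLA low to 4.92 ± 0.098 in HLA high, GRHL3 from 0.0331 ± 0.019 to 2.04 ± 0.058 and GRHL2 from 0.0662 ± 0.038 to 1.38 ± 0.11. KLF5, named after its values were seen, went from 35.6 ± 2.1 to 58.4 ± 5.8 CPM. EHF and GRHL3 had 3 counts each and GRHL2 had 6 in the HLA low libraries, and the fitted change of GRHL2 moved from 4.36 to 5.02 without HLA low replicate 2. OVOL1, another gene of that list, fell from 4.46 ± 0.43 to 0.192 ± 0.12 CPM.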
